A study of Vitis vinifera with 40 samples.

Results

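Transcript levels of the 3 grapevine genes listed as DELLA repressors of the gibberellin response are described here across somatic embryogenesis, 3 of the 29971 genes in the count table. They were chosen by identifier, not by their values, and are GAI1 (VIT_01s0011g05260), VIT_14s0006g00640 and VIT_11s0016g04630. GAI1 is the name the study's annotation gives to the first of them. The other two are called DELLA14 and DELLA11 here after the chromosome numbers in their identifiers, and their assignment to the DELLA family rests on the list itself, since no source used here pairs either identifier with a name. No sequence, gene length or coordinate of these gene models was used here, so that a level can be compared between stages for 1 gene but not between genes.

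Gibberellins are plant hormones that promote germination, elongation and the mobilisation of seed reserves. DELLA proteins are nuclear regulators that restrain these responses, and binding of gibberellin to its receptor GID1 leads to their ubiquitination and degradation. Control of DELLA activity therefore lies largely at the protein, while transcript levels, the quantity measured here, report only how much RNA is present. In grapevine, GAI1 is known from a mutation that makes plants dwarf and insensitive to gibberellin, with inflorescences in place of tendrils.

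Somatic embryos of the cultivar "Malvasia Istriana" were induced from immature anthers and sampled at 12 stages, in 40 libraries of 50 to 70 pooled embryos each. Stages C2 and EP have 5 libraries, and the remaining 10 stages have 3. Embryogenic tissue at early induction (EI) and embryos before (PG) and at the globular stage (G1, G2) were kept on auxin in constant dark, with a cytokinin also present in the induction medium. Heart (H), torpedo T1 and T2 and cotyledonary C1 embryos were on hormone-free medium in constant dark, and C2 embryos on hormone-free medium in long day. Seedlings (S), seedlings with epicotyl (EP) and juvenile plants (JP) were in long day on gibberellin, and that medium also held the auxin IAA. Gibberellin, IAA and age therefore change together after C2, and their parts in a difference cannot be told apart. Medium and stage likewise change together between G2 and H, and light and stage between C1 and C2. The replicates are called biological by the study, but no source used here says that they came from separate inductions, and p-values measure the spread between these samples only.

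Library totals lay between 13774534 and 68058022 counts. Levels are given as CPM, counts scaled to a library total of 1000000 after adjustment by TMM factors, which correct for a few abundant genes taking a large share of a library. These factors ranged between 0.394 and 1.47. EP replicates 1 to 3 stood apart from EP replicates 4 and 5, with factors of 0.394 to 0.424 against 0.949 to 1.22, and with 45.3 to 47.8% against 13.2 to 20.3% of counts in the 5 most abundant genes of a library. C2 replicates 1 and 2 were the closest pair among the C2 libraries, with a median squared difference of 1.46 times the counting noise, and were counted as separate samples. By the study's mapping summary, C2 and EP libraries had shorter reads than those of all other stages, so that read length and stage cannot be told apart in any comparison with C2 or EP on one side only, which are C2 against C1 or the dark stages, S or JP against C2, EP against S, JP against EP and, in part, the gibberellin stages against C2. EP and C2 share their read length. In pooled samples, fewer cells of a type and less RNA per cell cannot be told apart.

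All 3 DELLA genes were read in every library and had their highest stage means on the gibberellin medium under both scalings used. GAI1 had its highest stage mean in S (62.7 ± 17.4 CPM, SD, n = 3) and its lowest in T1 (5.89 ± 0.73 CPM, SD, n = 3), 10.7-fold apart. DELLA14 was highest in EP (49.3 ± 26.5 CPM, SD, n = 5) and lowest in T1 (3.70 ± 1.33 CPM, SD, n = 3), a span of 13.3-fold. DELLA11 spanned the widest range, 55.4-fold, with 55.2 ± 20.8 CPM (SD, n = 5) in EP and 0.996 ± 0.105 CPM (SD, n = 3) in H. These spans are on the TMM scale, and with library totals they were 6.63-fold for GAI1, 5.78-fold for DELLA14 and 25.6-fold for DELLA11, whose highest mean was then in S (36.9 CPM, against 31.4 CPM in EP). In the plot of levels by stage, the trough of DELLA11 falls a stage earlier than that of GAI1 and DELLA14. The quasi-likelihood F test of edgeR over the 12 stages gave adjusted p = 5.11e-11 for GAI1, 4.68e-09 for DELLA14 and 5.19e-09 for DELLA11, in a fit where 94.7% of genes passed 0.05, so that passing does not set these genes apart.

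**Figure D1:**
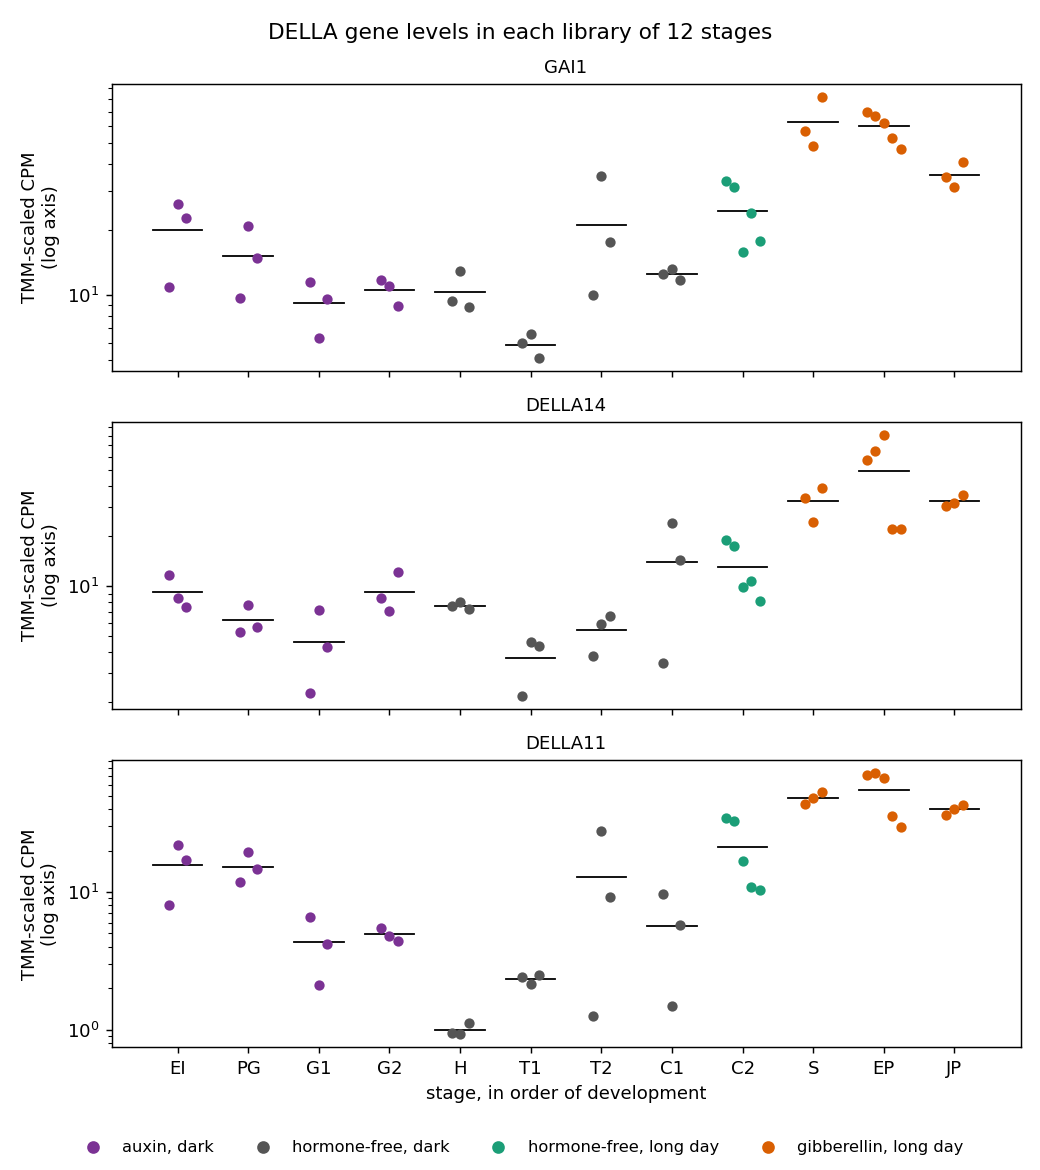
TMM-scaled CPM of GAI1, DELLA14 and DELLA11 (log axes) in each of the 40 libraries by stage, with the colour giving medium and light, a point for each library and a line at the stage mean. The means of S, EP and JP are the highest in all 3 panels, DELLA11 dips to about 1 CPM in H, and the T2 and C1 libraries are widely scattered for DELLA11.

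The order of stages was alike at the top and differed further down. On the TMM scale S, EP and JP were the 3 highest stages of every member, while with library totals the GAI1 mean of JP (25.1 CPM) came below that of EI (26.7 CPM). The ranges of most neighbouring stages in the order overlapped on the TMM scale. For GAI1, 10 of 11 neighbouring pairs overlapped, the exception being JP (31.4 to 40.9 CPM) below EP (47.4 to 70.2 CPM). For DELLA14, 10 of 11 overlapped as well, and the exception lay between S (24.3 to 38.83 CPM) and C1 (3.45 to 24.0 CPM). For DELLA11, 8 of 11 overlapped, with gaps between S and JP, between JP and C2 and between T1 and H. Over all genes, JP lay wholly above C2 for 28.9% and T1 wholly above H for 27.3%. For the other gaps the share over all genes is not given here. The neighbours were set by these same means, which favours overlap, so that the counts do not set these genes apart.

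On auxin medium, GAI1 and DELLA11 had higher mean levels in EI and PG than in the globular stages. GAI1 had 10.9, 26.1 and 22.7 CPM in EI, 9.68, 20.8 and 14.7 CPM in PG, 11.5, 6.33 and 9.56 CPM in G1 and 11.7, 10.96 and 8.84 CPM in G2. DELLA11 had 7.99, 21.99 and 17.1 CPM in EI, 11.9, 19.4 and 14.6 CPM in PG, 6.61, 2.11 and 4.18 CPM in G1 and 5.50, 4.81 and 4.44 CPM in G2. All G1 libraries of DELLA11 lay below all PG libraries, as they did for 25.5% of genes, while those of GAI1 overlapped. DELLA14 had 11.7, 8.51 and 7.50 CPM in EI, 5.31, 7.67 and 5.70 CPM in PG, 2.26, 7.16 and 4.31 CPM in G1 and 8.43, 7.04 and 12.1 CPM in G2. Its EI and PG libraries overlapped, and so did its G2 and G1 libraries.

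DELLA11 was 3.50-fold lower in G1 than in PG (log2 fold change -1.81, SE 0.43, adjusted p = 0.0279, edgeR), in a comparison where 25.2% of genes passed the threshold of 0.05. This call was lost when any PG library or G1 replicate 3 was left out, with adjusted p between 0.0808 and 0.0985 and log2 fold changes between -1.99 and -1.60. GAI1 and DELLA14 did not pass there, with log2 fold changes of -0.71 and -0.43 (adjusted p = 0.165 and 0.449). No member passed for PG against EI, where 6.78% of genes did, nor for G2 against G1, where 0.676% did. The most marked of these was DELLA14 in G2 against G1, at a log2 fold change of 0.99 (SE 0.44, adjusted p = 0.233).

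When embryos went to hormone-free medium and formed hearts, DELLA11 fell to its minimum, and the other 2 members did not pass the test. DELLA11 had 0.948, 0.925 and 1.12 CPM in H, from 35 to 51 counts in a library, against 5.50, 4.81 and 4.44 CPM in G2. The H libraries lay within a narrow band below every G2 library, an order that 32.3% of genes had. The difference was 5.01-fold (log2 fold change -2.32, SE 0.17, adjusted p = 0.000365, edgeR), in a comparison where 56.5% of genes passed. With 1 library left out at a time, its adjusted p stayed between 0.00057 and 0.00477. GAI1 had 9.31, 12.9 and 8.76 CPM in H, and DELLA14 had 7.53, 8.06 and 7.23 CPM in H. Both overlapped their G2 levels, with log2 fold changes of -0.05 (SE 0.18, adjusted p = 0.825) and -0.30 (SE 0.21, adjusted p = 0.256).

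In T1 against H the members moved in opposite directions. GAI1 had 5.99, 6.56 and 5.11 CPM in T1, all below its H libraries. DELLA14 had 2.17, 4.59 and 4.33 CPM in T1, also all below H. DELLA11 had 2.42, 2.15 and 2.48 CPM in T1, all above H. Over all genes, T1 lay wholly above H for 27.3% and wholly below it for 25%. The log2 fold changes of T1 against H were -0.83 for GAI1 (SE 0.20, adjusted p = 0.022), -1.06 for DELLA14 (SE 0.30, adjusted p = 0.0338) and 1.20 for DELLA11 (SE 0.21, adjusted p = 0.0093), and 31.7% of genes passed in this comparison. None of the 3 passed in a single edgeR model of all 12 stages, which pools the spread of replicates over stages (adjusted p = 0.116, 0.152 and 0.21). The call for GAI1 was also lost without H replicate 1 or 2 or T1 replicate 1 or 3, at log2 fold changes of -0.90, -0.66, -0.84 and -0.77. That for DELLA14 was lost without any H replicate or T1 replicate 3, at -1.07, -1.04, -1.10 and -1.22.

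In T2 and C1 the replicates disagreed widely. In T2, replicate 2 had the highest GAI1 level of the dark stages, 35.3 CPM, against 10.01 and 17.5 CPM in replicates 1 and 3. The same library had 27.9 CPM of DELLA11, while replicates 1 and 3 had 1.26 and 9.21 CPM. DELLA14 in T2 stayed between 3.81 and 6.59 CPM. In C1, DELLA11 had 9.60, 1.48 and 5.77 CPM and DELLA14 had 3.45, 24.0 and 14.4 CPM, so that the library highest in one was lowest in the other. GAI1 in C1 was even, at 12.4, 13.2 and 11.6 CPM.

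No member passed for T2 against T1, where 2.06% of genes did. GAI1 came closest, with a log2 fold change of 1.85 (SE 0.47, adjusted p = 0.0996), and it passed without T2 replicate 1 (2.18, adjusted p = 0.0149), as DELLA11 did (2.99, adjusted p = 0.015, from 2.46 with all libraries). DESeq2 on the same libraries called both. For C1 against T2 edgeR called 0 of 21412 genes (0%), with 1810 genes at an unadjusted p below 0.05, and DESeq2 called 511. The 3 members had adjusted p between 0.578 and 0.660 there by edgeR.

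Taken as blocks of stages in a model of all libraries, hormone-free dark stages (H, T1, T2 and C1) were set against auxin stages. DELLA11 was lower, with a log2 fold change of -1.23 (SE 0.32, adjusted p = 0.00196, edgeR), with 43.7% of genes passing. Neither block was even for DELLA11. Its means were 15.7, 15.3, 4.30 and 4.92 CPM in EI, PG, G1 and G2. In H, T1, T2 and C1 they were 0.996, 2.35, 12.8 and 5.62 CPM, so that the means of T2 and C1 lay above those of G1 and G2. The libraries did not, since T2 replicate 1 (1.26 CPM) and C1 replicate 2 (1.48 CPM) lay below every G1 and G2 library. GAI1 and DELLA14 did not pass, at -0.22 (SE 0.17, adjusted p = 0.33) and -0.05 (SE 0.24, adjusted p = 0.908). Whether the genes differ from each other in this contrast was not tested.

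The ratio of 2 members within a library does not depend on the scaling of that library, and it separated stages and replicates alike. DELLA14 counts exceeded DELLA11 counts most in H, where the log2 ratio was 2.92 ± 0.22 (SD, n = 3). In JP it was -0.31 ± 0.03 (SD, n = 3), the tightest of all stages. In C1 the ratio of DELLA14 to DELLA11 counts was 0.361, 16.1 and 2.49 in replicates 1, 2 and 3, a 44.5-fold spread among libraries of a single stage. The corresponding spread was 14.3-fold in T2 and 9.81-fold in G1, against 1.15-fold in PG and 1.34-fold in H. In 6 of 12 stages the library with the most DELLA14 CPM was the one with the least DELLA11 CPM, and in 4 of 12 stages these genes shared their highest library. GAI1 and DELLA11 shared their highest library in 8 of 12 stages, and in 3 the library highest in GAI1 was lowest in DELLA11. With mostly 3 libraries in a stage, such counts set no pair of genes apart. These counts are a description of libraries that share their embryos and depth, and the cause of the spread was not tested.

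**Figure D2:**
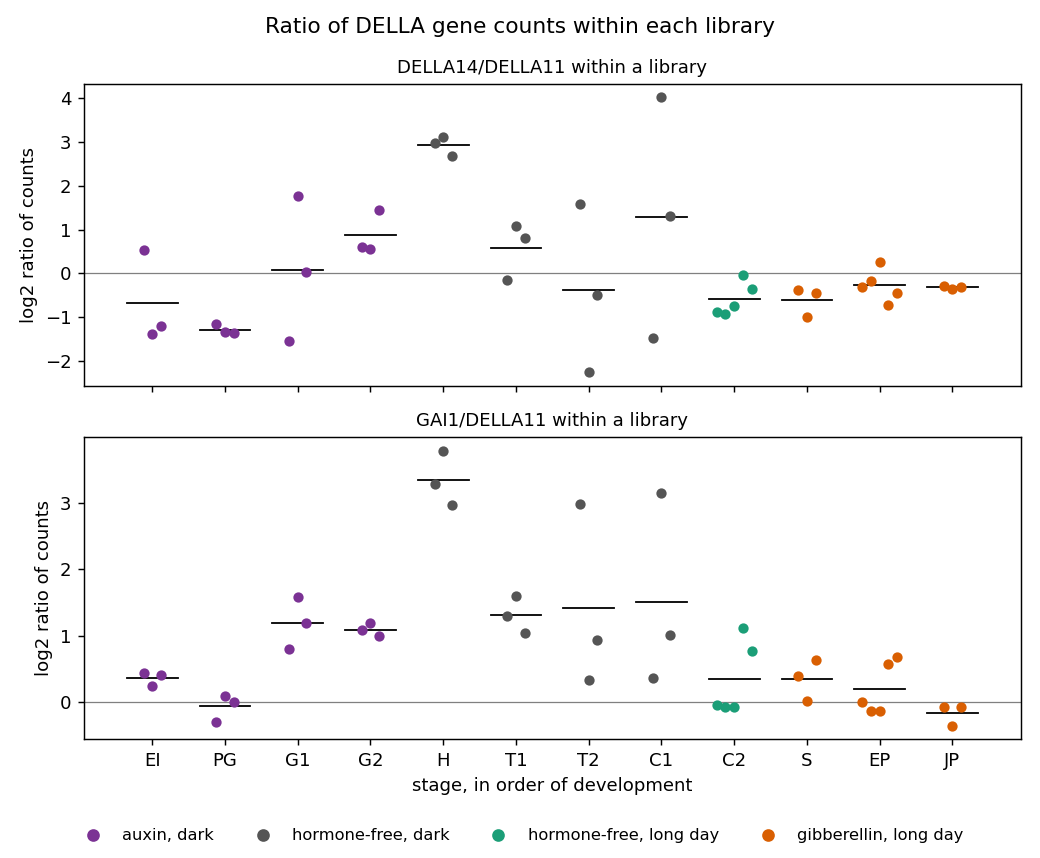
Log2 ratio of counts of 2 DELLA genes within each library (pseudocount 0.5), DELLA14 over DELLA11 above and GAI1 over DELLA11 below, by stage, with a line at the stage mean. Both ratios peak in H, and the libraries of C1 and T2 are spread widely. The means of the 4 long-day stages lie between -0.60 (DELLA14/DELLA11 in S) and 0.35 (GAI1/DELLA11 in S).

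C2 embryos, the first in long day, had higher levels of all 3 members than the dark hormone-free stages as a group. Light and stage cannot be told apart in this difference. GAI1 had 33.6, 31.5, 15.8, 23.7 and 17.7 CPM in C2. DELLA14 had 18.8, 17.4, 9.91, 10.7 and 8.14 CPM, and DELLA11 had 34.6, 33.0, 16.7, 10.9 and 10.4 CPM. C2 replicates 1 and 2 were highest for all 3 genes, and DELLA11 differed 3-fold or more between these and replicates 4 and 5. Against the mean of H, T1, T2 and C1, the log2 fold change was 1.13 for GAI1 (SE 0.22, adjusted p = 7.77e-05), 0.93 for DELLA14 (SE 0.31, adjusted p = 0.0105) and 2.55 for DELLA11 (SE 0.38, adjusted p = 2.77e-06), in an edgeR contrast where 55.9% of genes passed. With library totals in place of TMM factors these were 0.35 (adjusted p = 0.22), 0.16 (adjusted p = 0.63) and 1.74 (adjusted p = 0.000197), so that the calls of GAI1 and DELLA14 depend on the scaling. DELLA14 also fell short without C2 replicate 1 (0.77, adjusted p = 0.0544).

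Against C1 alone, GAI1 was 1.94-fold higher in C2 (log2 fold change 0.96, SE 0.27, adjusted p = 0.0386, edgeR), where 22.3% of genes passed. All C2 libraries of GAI1 lay above all C1 libraries, as for 13.9% of genes. The call was lost with library totals (0.18, adjusted p = 0.553), which lower the median log2 fold change of all genes in this comparison by 0.72, and on leaving out any C1 replicate or C2 replicate 1, 2 or 4 (0.83 to 0.99, adjusted p = 0.0523 to 0.128). DELLA11 had a log2 fold change of 1.91 (SE 0.66, adjusted p = 0.0667) and passed without C1 replicate 1 (2.49, adjusted p = 0.0344). DELLA14 had -0.14 (SE 0.55, adjusted p = 0.868), with the C2 libraries inside the range of C1.

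On gibberellin medium all 3 members were higher in seedlings than in any C2 library. GAI1 had 57.2, 48.7 and 82.3 CPM in S, against 15.8 to 33.6 CPM in C2. DELLA14 had 33.6, 24.3 and 38.83 CPM in S, against 8.14 to 18.8 CPM in C2. DELLA11 had 43.6, 47.9 and 52.9 CPM in S, against 10.4 to 34.6 CPM in C2. Every S library lay above every C2 library for each gene, as it did for 20.4% of all genes tested. GAI1 rose 2.52-fold (log2 fold change 1.33, SE 0.26, adjusted p = 0.00739, edgeR) and DELLA14 rose 2.43-fold (1.28, SE 0.30, adjusted p = 0.0133). For DELLA11 the log2 fold change was 1.15 (SE 0.41) with adjusted p = 0.0636, short of the threshold. So 2 of the 3 members were called higher, where 16.1% of all genes were called higher and 27.6% were called in either direction.

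The estimates of S against C2 lay close to each other for the 3 genes, and the calls near the threshold turned on single libraries. DELLA11 passed with DESeq2 (1.16, adjusted p = 0.0262), with library totals (1.26, adjusted p = 0.0226) and without C2 replicate 1 or 2 (1.39 and 1.35, adjusted p = 0.0362 and 0.0458). DELLA14 fell short without S replicate 3 (1.15, adjusted p = 0.0541). GAI1 kept its call with each library left out in turn, at log2 fold changes between 1.12 and 1.495. Within libraries, the mean log2 ratio of DELLA14 to DELLA11 counts was -0.60 in S and -0.58 in C2 (exact permutation test, two-sided p = 0.946), that of GAI1 to DELLA11 was 0.35 in S and 0.34 in C2 (exact p = 1), and that of GAI1 to DELLA14 was 0.95 in S and 0.93 in C2 (exact p = 0.875). The smallest p this test allows is 0.0179, and all 3 pairs had an adjusted p of 1. With 1 library left out, these differences in log2 ratio lay between -0.13 and 0.20. The log2 ratio of GAI1 to DELLA11 in C2 was -0.04, -0.07 and -0.08 in replicates 1 to 3. It was 1.12 and 0.77 in C2 replicates 4 and 5, so that alike means do not show a constant ratio.

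In seedlings with epicotyl the libraries fell into the 2 sets described above. GAI1 had 70.2, 66.7, 61.9, 53.2 and 47.4 CPM in EP, DELLA14 had 57.0, 64.9, 80.9, 21.9 and 21.9 CPM, and DELLA11 had 70.2, 72.9, 67.8, 35.7 and 29.5 CPM, in replicates 1 to 5. Replicates 1 to 3 were higher than replicates 4 and 5 for every member on this scale. Scaled by the library total alone, without TMM factors, GAI1 was the other way round, with 26.1 to 29.8 CPM in replicates 1 to 3 and 50.5 and 58.0 CPM in replicates 4 and 5, and DELLA11 had 28.6 to 29.8 against 33.9 and 36.1 CPM. DELLA14 had 24.2, 25.6 and 34.1 against 20.7 and 26.7 CPM on that scale and overlapped. The direction of the difference within EP thus depends on the scaling for GAI1 and DELLA11.

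**Figure D3:**
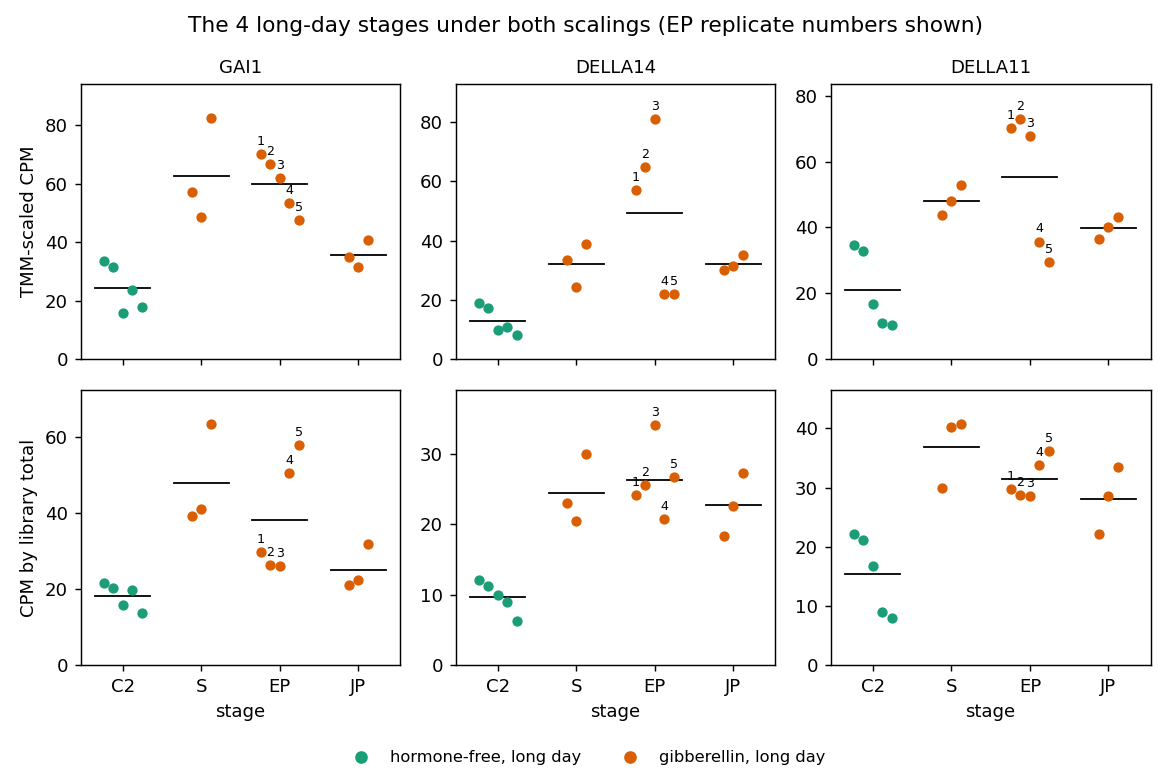
Levels of the 3 DELLA genes in C2, S, EP and JP on linear axes, as TMM-scaled CPM (upper row) and as CPM of the library total (lower row), with EP replicates numbered. S, EP and JP means stand above C2 in all 6 panels, while the numbered EP libraries change their order between the rows for GAI1 and DELLA11.

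All 3 members passed for EP against C2, in a comparison where 51.7% of genes did. The log2 fold changes were 1.36 for GAI1 (SE 0.24, adjusted p = 0.000637), 2.01 for DELLA14 (SE 0.44, adjusted p = 0.00241) and 1.46 for DELLA11 (SE 0.43, adjusted p = 0.0138), by edgeR. GAI1 and DELLA14 lay above C2 in every EP library, as did 19.2% of genes, and DELLA11 overlapped. With library totals the estimates were 1.07, 1.44 and 1.02 and all passed. Without EP replicates 1, 2 and 3, GAI1 still passed (1.04, adjusted p = 0.0131), whereas DELLA14 and DELLA11 did not (0.74 and 0.62, adjusted p = 0.0783 and 0.304). Without EP replicates 4 and 5 all 3 passed, at 1.59, 2.52 and 1.88.

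JP libraries were even. GAI1 had 34.9, 31.4 and 40.9 CPM, DELLA14 had 30.1, 31.5 and 35.04 CPM and DELLA11 had 36.5, 40.04 and 43.1 CPM in JP. DELLA14 was 2.46-fold higher in JP than in C2 (log2 fold change 1.30, SE 0.27, adjusted p = 0.00235, edgeR), where 59.9% of genes passed. GAI1 and DELLA11 had log2 fold changes of 0.54 (SE 0.25, adjusted p = 0.0842) and 0.90 (SE 0.41, adjusted p = 0.0798). Both passed without C2 replicate 1 (0.70 and 1.17, adjusted p = 0.0304 each), and DELLA11 also passed without C2 replicate 2 (1.13, adjusted p = 0.0412) and with library totals (0.86, adjusted p = 0.0448). DELLA14 and DELLA11 in JP lay wholly above C2 on the TMM scale, as did 28.9% of genes, whereas GAI1 overlapped.

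Within the gibberellin stages no member passed between neighbours, although 30% of genes did for EP against S and 5.54% for JP against EP. In EP against S the log2 fold changes were 0.04 for GAI1, 0.74 for DELLA14 and 0.32 for DELLA11, with standard errors of 0.24, 0.50 and 0.36, and with library totals the estimates of GAI1 and DELLA11 turned to -0.32 and -0.23. In JP against EP they were -0.80 for GAI1 (SE 0.24, adjusted p = 0.0838), -0.69 for DELLA14 (SE 0.49) and -0.54 for DELLA11 (SE 0.37). GAI1 passed in JP against EP without EP replicate 5 (-0.92, adjusted p = 0.0299). These comparisons rest on which EP libraries are used. With EP replicates 1 to 3 alone, all 3 members were lower in JP than in EP (-1.03, -1.21 and -0.96, adjusted p between 0.00148 and 0.00154). With EP replicates 4 and 5 alone, DELLA14 was higher in JP than in EP (0.62, adjusted p = 0.0338) and DELLA11 was lower in EP than in S (-0.58, adjusted p = 0.0212), and the estimates of GAI1 and DELLA14 in EP against S and of DELLA11 in JP against EP also changed sign without passing.

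Taking S, EP and JP together against C2 in the model of all libraries, all 3 members passed, where 55.1% of genes did and 23.9% were called higher. The log2 fold changes were 1.06 for GAI1 (SE 0.24, adjusted p = 0.000431), 1.51 for DELLA14 (SE 0.35, adjusted p = 0.000463) and 1.17 for DELLA11 (SE 0.43, adjusted p = 0.0218). GAI1 and DELLA14 passed with every library left out in turn and every other alternative tried. DELLA11 fell short without C2 replicate 3, 4 or 5 (1.09, 1.00 and 0.99, adjusted p = 0.0532, 0.0693 and 0.0717) and without EP replicates 1, 2 and 3 (0.92, adjusted p = 0.0787). S against C2, EP against C2, JP against C2 and this contrast share their C2 libraries and are not independent of each other.

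**Figure D4:**
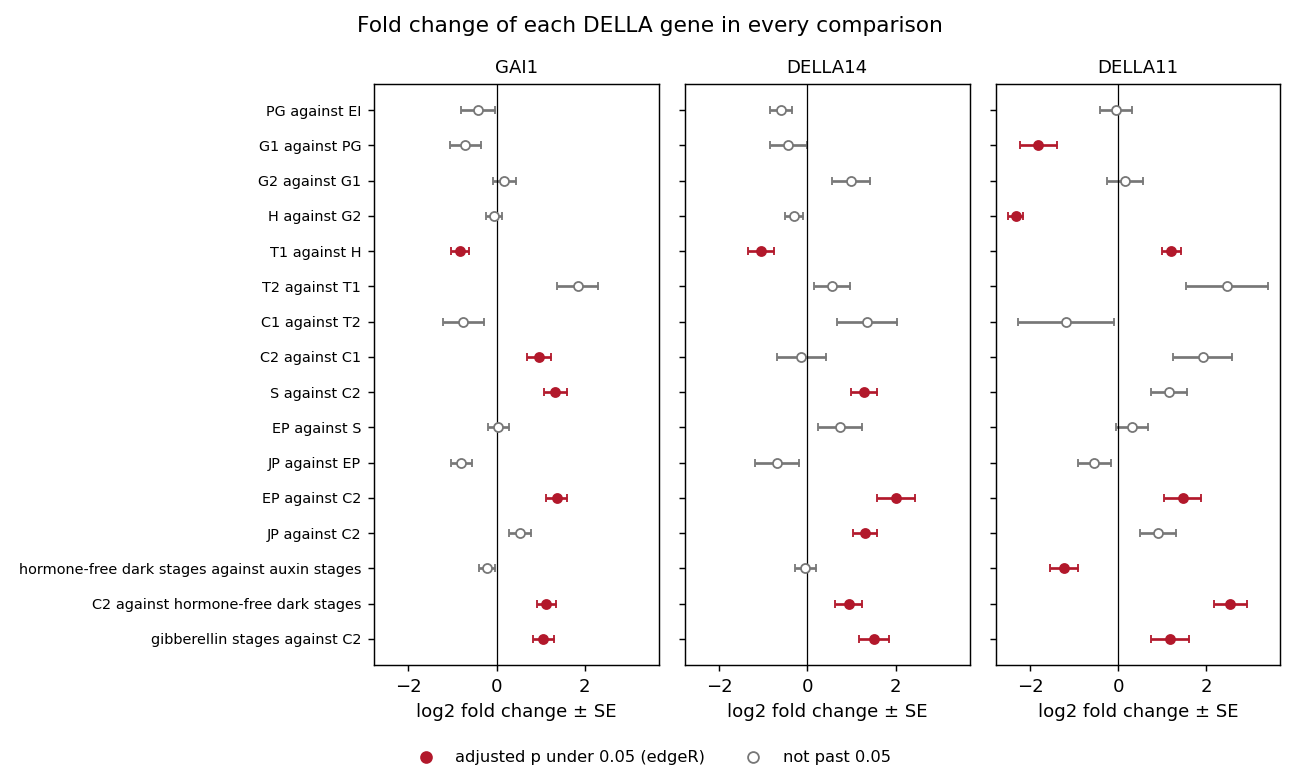
Log2 fold change ± SE (edgeR) of GAI1, DELLA14 and DELLA11 in the 13 pairs of stages and the 3 contrasts of stage groups, the first-named stage or group over the second, filled red where the adjusted p was below 0.05. All estimates for S, EP and JP against C2 lie right of 0, and T1 against H has DELLA11 on the other side of 0 from GAI1 and DELLA14.

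The genes closest to each member in their course over the stages were found by Pearson correlation of 12 stage means of log2 CPM over 24861 other genes, as a description only, since all genes share the same libraries. For GAI1 they were VIT_01s0026g00170 (r = 0.982) and VIT_10s0003g03880 (r = 0.978), which averaged 41.3 and 81.6 CPM in S and 13.4 and 26.6 CPM in T1. For DELLA14 they were VIT_18s0001g14520 (r = 0.969), highest in EP at 21.3 CPM, and VIT_03s0063g02320 (r = 0.960), with 82.4 CPM in EP and 0.119 CPM in T1. For DELLA11 they were VIT_14s0060g01760 (r = 0.975), with 52.1 CPM in S and 4.87 CPM in H, and VIT_08s0007g02700 (r = 0.967), with 0.0638 CPM in H. Among the members, GAI1 correlated with DELLA14 at 0.908 and with DELLA11 at 0.902, and DELLA14 with DELLA11 at 0.793. Seen from GAI1, DELLA14 ranked 258 and DELLA11 ranked 329 among all genes, so that many other genes followed GAI1 more closely than its relatives did.

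Around these repressors, 11 other genes carried gibberellin terms in the portion of the study's gene ontology annotation used here, covering hormone synthesis, inactivation, signalling and response. In S against C2, 7 of the 11 had enough counts to be tested, of which 2 were higher and 2 lower (16.1% and 11.5% of all genes tested), with a median log2 fold change of -0.35 beside -0.04 over all genes tested. A single model of all stages called only 2 of them. VIT_17s0000g06210, annotated to gibberellin signalling and response, had 4.32, 3.60 and 13.2 CPM in S, against 1.112 to 2.84 CPM in C2. It rose by a log2 fold change of 1.94 (SE 0.48, adjusted p = 0.0179, edgeR), and by 5.19 in EP against C2 (SE 0.57, adjusted p = 2.27e-05). VIT_01s0011g03400, annotated to gibberellin homeostasis, had 53.6, 70.6 and 68.9 CPM in S, against 13.7 to 31.6 CPM in C2, a log2 fold change of 1.49 (SE 0.26, adjusted p = 0.00449).

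The lower genes of this list were annotated to positive regulation of signalling and to synthesis. VIT_03s0091g00290, a positive regulator by its annotation, had 11.2, 16.4 and 10.97 CPM in S, against 27.1 to 41.5 CPM in C2 (log2 fold change -1.44, SE 0.21, adjusted p = 0.00243, edgeR). VIT_12s0028g02130, annotated to gibberellin biosynthesis, had 22.5, 27.1 and 27.1 CPM in S, against 34.6 to 48.4 CPM in C2 (-0.72, SE 0.16, adjusted p = 0.0119). By edgeR it did not pass in EP against C2 (-0.35, adjusted p = 0.272) or JP against C2 (-0.16, adjusted p = 0.387). VIT_03s0091g00290 did not pass in EP against C2 (-0.95, adjusted p = 0.0607) and passed in JP against C2 (-0.55, adjusted p = 0.0286). The EP libraries were split for both genes. VIT_03s0091g00290 had 8.45, 8.50, 7.91, 26.0 and 36.7 CPM in EP replicates 1 to 5, and VIT_12s0028g02130 had 20.6, 21.3, 24.8, 34.7 and 57.9 CPM. Every S library lay outside the C2 range for each of these 4 genes. They were named because they were called in this comparison, so that this order adds no support. Over all genes tested, S lay wholly above C2 for 20.4%, and the share wholly below is not given here. VIT_06s0004g06790, chosen after its values were seen, carries the term for gibberellin 2-beta-dioxygenase, an enzyme activity that inactivates gibberellins. This gene had 15.4, 16.7, 11.8, 31.1 and 32.7 CPM in C2 replicates 1 to 5, and 14.3, 11.2 and 13.1 CPM in S. All S libraries lay below C2 replicates 1, 2, 4 and 5, and C2 replicate 3 fell inside the S range. The log2 fold change of this gene was -0.74 in S against C2 (SE 0.30, adjusted p = 0.0926, edgeR). It was -1.25 in EP against C2 (SE 0.36, adjusted p = 0.0127) and -1.47 in JP against C2 (SE 0.33, adjusted p = 0.00364). The DELLA genes had positive estimates in all of these comparisons, and whether the courses are linked was not tested.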

How the data were processed

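Unnormalized counts per gene model were deposited by the authors, who had depleted rRNA, sequenced read pairs and used BBMap with the 12X genome of grapevine. How strand and multiply matching reads were handled is not stated in the sources used, so reads shared between DELLA paralogues may be assigned uncertainly. All 40 count columns were matched to samples by their labels. Of the table's identifiers, 0 were found in the RefSeq gene list, so that no sequence or coordinate was taken from it.

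Stages were compared with the quasi-likelihood test of edgeR 4.0.16 (limma 3.58.1, R 4.3.3), with filterByExpr, TMM factors and Benjamini-Hochberg adjustment over all genes tested, at 0.05. Each pair of stages was fitted on its own libraries, and the F test and the contrasts of stage groups on all 40. Ratios of counts used a pseudocount of 0.5 and an exact permutation test. Alternatives were DESeq2 1.42.0, DESeq2 size factors or library totals in edgeR, a single model of all stages, no filter, the replicate number as a block and leaving out each library in turn. Summing the closest replicates of C2 and of EP, and leaving out subsets of EP, were chosen after seeing the data. Counts were simulated with 200 genes changed 4-fold in a single stage and a dispersion of 0.1 for all genes. The test recovered 94% of changed genes for S against C2 (21834 genes), with 5.05% of calls false. The F test recovered 86.5% (22258 genes), with 3.35% of calls false. The members changed less than 4-fold in S against C2 and differed in spread, so that these shares do not give the power for them.

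Named genes were the members, the 2 genes most alike in course to each of them, and up to 4 genes of the gibberellin list called in S against C2, by size of change. A further gene of that list, VIT_06s0004g06790, was named after its values were seen. The members and lists were chosen with earlier results of these data known. Figures were drawn with matplotlib 3.10.9.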

Additional observations from a re-analysis of the deposited data

How the results depend on the processing

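Of 350 recomputed results under alternatives other than leaving out a library, 299 kept their direction and side of the threshold, 15 lost the call, 23 gained it, 12 changed sign and 1 count moved. Leaving out 1 library kept direction and side for 532 of 599 results, with 23 calls lost, 9 gained and 35 changes of sign. Every result that changed sign had not passed with all libraries. The F test over the 12 stages was called for all members throughout. Unless stated, the cause of a change was not tested.

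In a single model of all stages, T1 against H lost its calls (GAI1 -0.81, DELLA14 -1.04, DELLA11 1.23), T2 against T1 gained them for GAI1 (1.83) and DELLA11 (2.45), C2 against C1 gained DELLA11 (1.91), and 2 of the gibberellin-annotated genes were called in S against C2 in place of 4. Library totals moved the median log2 fold change of all genes by -0.72 in C2 against C1 and by between -0.24 and 0.24 in the other pairs of stages. They ended the calls of GAI1 (0.35) and DELLA14 (0.16) for C2 against hormone-free dark stages and of GAI1 for C2 against C1 (0.18), and added DELLA11 in S against C2 (1.26) and JP against C2 (0.86). DESeq2 added GAI1 (1.83) and DELLA11 (2.44) in T2 against T1, DELLA11 in C2 against C1 (1.91) and S against C2 (1.16), and GAI1 in JP against EP (-0.82). With library totals GAI1 in H against G2 (0.18) and in EP against S (-0.32) and DELLA11 in EP against S (-0.23) changed sign without passing, as did GAI1 in EP against S in a single model (-0.069). No filter on low counts ended GAI1 in C2 against C1 (0.89).

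The replicate numbers do not pair the samples, since in 0 of 13 comparisons did all 3 same-numbered correlations exceed 0.1. With the replicate block, calls were lost for DELLA11 in gibberellin stages against C2 (0.95) and G1 against PG (-1.90), DELLA14 in T1 against H (-1.13) and GAI1 in C2 against C1 (1.08), and gained in EP against S for DELLA14 (1.24) and DELLA11 (0.71) and in JP against EP for GAI1 (-1.02), DELLA14 (-1.18) and DELLA11 (-0.94). DELLA11 in PG against EI (0.023) and DELLA14 in C2 against C1 (0.44) changed sign without passing.

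Summing the closest replicates, chosen after seeing the data like the next alternatives, ended GAI1 in C2 against C1 (0.84) and added DELLA11 in S against C2 (1.36) and both GAI1 (0.67) and DELLA11 (1.13) in JP against C2, and GAI1 in EP against S changed sign (-0.061). Leaving out EP replicates 4 and 5 added DELLA14 (1.24) and DELLA11 (0.72) in EP against S and GAI1 (-1.03), DELLA14 (-1.21) and DELLA11 (-0.96) in JP against EP. Leaving out EP replicates 1, 2 and 3 changed the sign of all 3 members in EP against S (GAI1 -0.34, DELLA14 -0.58 and DELLA11 -0.58, the last of which passed) and of DELLA14 (0.62, which passed) and DELLA11 (0.36) in JP against EP, and ended DELLA14 (0.74) and DELLA11 (0.62) in EP against C2 and DELLA11 in gibberellin stages against C2 (0.92).

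With 1 library left out at a time, the log2 fold change of DELLA11 in G1 against PG lay between -2.30 and -1.52, that of GAI1 in T1 against H between -0.94 and -0.66 and that of DELLA14 there between -1.26 and -0.79. In T2 against T1 the ranges were 1.24 to 2.18 for GAI1 and 1.16 to 2.99 for DELLA11, and in C2 against C1 they were 0.83 to 1.06 for GAI1 and 1.45 to 2.49 for DELLA11. In S against C2 they were 1.13 to 1.46 for DELLA14 and 0.96 to 1.39 for DELLA11, in JP against EP -0.92 to -0.72 for GAI1, and in JP against C2 0.43 to 0.70 for GAI1 and 0.72 to 1.17 for DELLA11. DELLA14 in C2 against hormone-free dark stages lay between 0.77 and 1.09, and DELLA11 in gibberellin stages against C2 between 0.99 and 1.42. Ranges that crossed 0, none of them called with all libraries, were -1.83 to 0.10 for DELLA11 in C1 against T2, -0.16 to 0.60 for DELLA11 and -0.036 to 0.36 for GAI1 in G2 against G1, -0.36 to 0.28 for DELLA11 in PG against EI, -0.61 to 0.49 for DELLA14 in C2 against C1, -0.20 to 0.077 for DELLA14 in hormone-free dark stages against auxin stages, -0.12 to 0.24 for GAI1 in EP against S and -0.23 to 0.078 for GAI1 in H against G2. For S against C2 the differences in log2 ratio ranged between -0.13 and 0.17 for DELLA14/DELLA11, -0.13 and 0.20 for GAI1/DELLA11 and -0.039 and 0.12 for GAI1/DELLA14.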
